A study of Mus musculus with 384 samples.

Results

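Ptprt, Ptprd, Ptprs, Ptprf, Il1rapl1, Il1rapl2, Slitrk2, Slitrk4, Slitrk5 and Slitrk6 are 10 of the 32813 genes measured, and they encode receptor tyrosine phosphatases, Il1rapl proteins and Slitrk proteins of the neuronal surface. They were chosen because the levels of Ptprt and Il1rapl2 differed between the 3 marker groups of cells compared below. The levels of these 2 genes between the groups are therefore given as a description, without a test, and the other 8 genes were added as relatives. All cells were retinal cells of mice at postnatal day 17 that carried Kcng4-cre, a Cre recombinase inserted at the locus of the potassium channel subunit gene Kcng4, and Thy1-stop-YFP Line#1, a reporter that makes yellow fluorescent protein under Thy1 promoter control once Cre has acted. Fluorescent cells were sorted singly into wells, so a cell needed present or past Kcng4 activity and a working Thy1 reporter to be included. There was no treatment, and every group shared both alleles. The 4 retinas, named 1la and 1Ra in mouse 1 and 2la and 2Ra in mouse 2, gave 96 cells each, and the labels do not spell out these suffixes. Each cell was sequenced after Smart-seq2, which copies full-length transcripts.

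Cells with at least 3000 genes at an expected count of 1 or more were kept, 321 of 383 cells with values, and were grouped by 3 transcripts. Sox6-only cells (151 cells) had at least 20 TPM of Sox6, a transcription factor gene, and less of the other 2 markers. TPM is a gene's share of all transcripts in the cell, corrected for gene length. Vsx1-only cells (60 cells) reached that level of Vsx1 alone, a homeobox transcription factor gene, and Ddit4l-only cells (59 cells) of Ddit4l alone, a relative of a stress-response regulator. By retina, in the order 1la, 1Ra, 2la and 2Ra, there were 33, 30, 46 and 42 Sox6-only cells, 16, 18, 14 and 12 Vsx1-only cells, and 10, 19, 20 and 10 Ddit4l-only cells. The 270 cells held 203657 to 1945582 expected counts each, with a median of 1068624. Of 11 bipolar cell markers, the number reaching 1 TPM in most cells was 9 in the Sox6-only, 9 in the Vsx1-only and 7 in the Ddit4l-only group. Otx2, Grm6, Trpm1 and Isl1 were among them in every group. No amacrine, microglial or endothelial marker was that common in any group, and Cldn5 was at 0 throughout. Of 6 Müller glia markers, 2, 2 and 1 were that common, and of 5 horizontal cell markers 2 in each group. Of 7 cone markers, Pde6h alone was that common, in each group, and of 8 ganglion cell markers Thy1 alone, in Sox6-only cells. Of 8 rod markers, 4, 4 and 2 were. The summed level of the rod markers reached 1000 TPM in 44 Sox6-only, 18 Vsx1-only and 11 Ddit4l-only cells (29.1%, 30% and 18.6%).

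In mammalian neurons Ptprd, Ptprs and Ptprf form the LAR family of receptor phosphatases. These sit mostly on the presynaptic side and bind postsynaptic partners across the cleft, among them Il1rapl1 and proteins of the Slitrk family, and such pairs can induce the formation of synapses. Ptprt belongs to another family of receptor phosphatases, whose extracellular parts can bind to each other between neighbouring cells. Il1rapl2 is the closest relative of Il1rapl1, a gene linked to intellectual disability in humans. Bipolar cells carry signals from photoreceptors to ganglion and amacrine cells, so they are postsynaptic in the outer retina and presynaptic in the inner retina.

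The sequences just before the transcription start are shown for Ptprt and Il1rapl2, the genes for whose differences between the groups the set was chosen. They are from the RefSeq promoter table (build GRCm38.p6), in which 8 of the 10 genes had an entry. Only bases before the start of every annotated transcript are printed, at chr2:162661148-162661397 on the minus strand for Ptprt and at chrX:137570504-137570607 on the plus strand for Il1rapl2, 5′ to 3′. Capitals mark a match to the E-box CANNTG.
Ptprt: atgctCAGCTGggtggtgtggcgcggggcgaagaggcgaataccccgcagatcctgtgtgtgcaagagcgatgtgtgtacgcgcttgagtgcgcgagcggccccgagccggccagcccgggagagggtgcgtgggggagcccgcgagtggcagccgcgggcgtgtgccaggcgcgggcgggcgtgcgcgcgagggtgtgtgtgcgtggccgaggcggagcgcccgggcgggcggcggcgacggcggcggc
Il1rapl2: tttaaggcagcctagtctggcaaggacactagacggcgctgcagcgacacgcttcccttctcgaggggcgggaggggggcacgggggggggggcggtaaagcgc
The 250 bases before the RefSeq start were 76.4% G or C with 39 CpG dinucleotides for Ptprt, a number reached by 1.57% of 32851 promoters of that length. For Il1rapl2 they were 61.2% G or C with 14 CpG dinucleotides, a number reached by 29.4% of promoters, and the median promoter had 6. On either strand, CANNTG was found once for Ptprt and not for Il1rapl2, against 66.2% of all promoters. The letters ACAAT, a core bound by Sox factors, were in neither window, against 27.7% of all promoters. The letters TAATTA and TAATCC, bound by homeobox factors, were also in neither, against 4.84% and 6.25% of all promoters.

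Ptprt, the phosphatase outside the LAR family, was expressed in Sox6-only cells and nearly absent from the other 2 groups. Mean Ptprt levels over the cells of retinas 1la, 1Ra, 2la and 2Ra were 52.6, 28.7, 34.5 and 32.5 TPM in Sox6-only cells. In the same retinas the means were 0.025, 0, 0.09 and 2.48 TPM in Vsx1-only cells, and 0.049, 2.67, 0.596 and 2.92 TPM in Ddit4l-only cells. Every retina mean of Sox6-only cells lay above every mean of the other groups, while the values of Vsx1-only and Ddit4l-only cells overlapped. Averaged over the mice, Ptprt was at 37.4 ± 5.4 TPM in Sox6-only cells, 0.603 ± 0.836 TPM in Vsx1-only cells and 1.57 ± 0.28 TPM in Ddit4l-only cells (SD, n = 2 mice). On summed counts the log2 fold change of Ptprt was 6.46 for Sox6-only against Vsx1-only cells and 4.95 for Sox6-only against Ddit4l-only cells. The Vsx1-only value rests on 1 cell of retina 2Ra that held 92.8% of the group's Ptprt counts, and without that retina the log2 fold change against Vsx1-only cells was 9.32. Leaving out other retinas gave 6.08 to 7.90. The log2 fold change against Ddit4l-only cells was 7.68 without retina 1Ra, 5.43 without 2Ra, 4.66 without 2la and 4.30 without 1la.

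**Figure D1:**
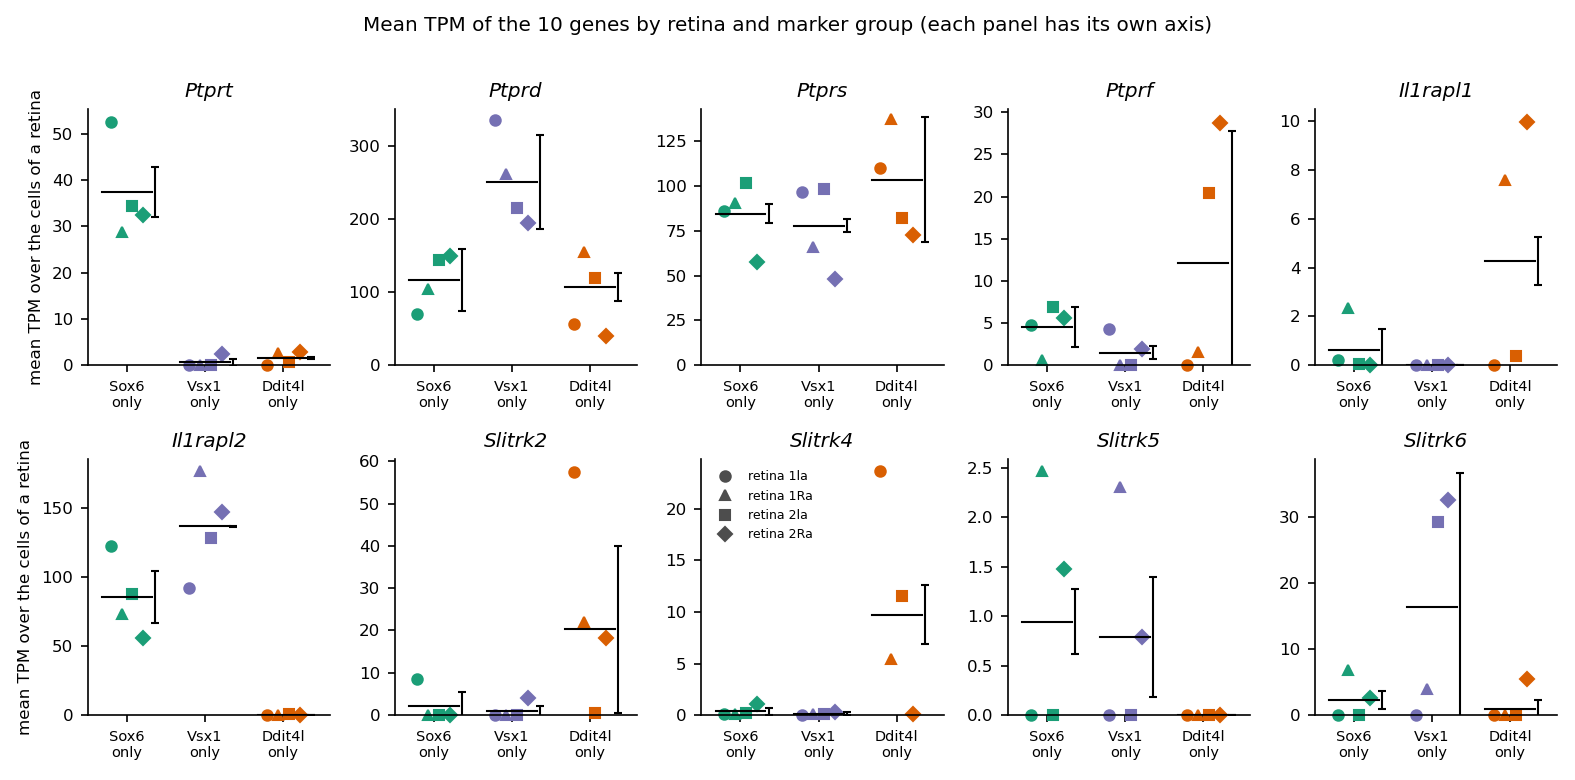
Mean TPM of each gene over the cells of 1 retina (y axis, own scale per panel) in Sox6-only, Vsx1-only and Ddit4l-only cells (x axis). Symbols are the 4 retinas, horizontal lines the mean of the 2 mice and vertical bars its SD; Ptprt is high in Sox6-only cells alone, Il1rapl2 is low in Ddit4l-only cells alone, and Ptprd is highest in Vsx1-only cells.

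Ptprt was not uniform among Sox6-only cells. It reached 10 TPM, the level taken here to mark an expressing cell, in 63 of 151 Sox6-only cells (41.7%, exact 95% interval 33.8 to 50.02%). The count was 1 of 60 Vsx1-only cells (1.67%, interval 0.0422 to 8.94%) and 4 of 59 Ddit4l-only cells (6.78%, interval 1.88 to 16.5%). Intervals are exact binomial ones and cover counting error only. The Sox6-only share was 48.5%, 36.7%, 36.96% and 45.2% in retinas 1la, 1Ra, 2la and 2Ra. Every retina thus held Sox6-only cells at 10 TPM or more and Sox6-only cells below that level. Expressing Sox6-only cells had a median of 77.05 TPM and a highest value of 286.3 TPM, and the median over all Sox6-only cells was 1.68 TPM. Expressing Sox6-only cells were somewhat deeper than the others, with median totals of 1.144e+06 and 1.040e+06 expected counts, a direction found in all 4 retinas, and had medians of 6354 and 6306 genes per cell. The part of depth and of missed transcripts in the split was not tested. In 3 sets of cells ordered from low to high Sox6, Ptprt was expressed in 19 of 50, 16 of 50 and 28 of 51 Sox6-only cells. The Spearman correlation of Ptprt with Sox6 over the 151 cells was 0.12. It was 0.32 and 0.39 in the retinas of mouse 1 and -0.01 and -0.10 in those of mouse 2. An expected count of 1 or more of Ptprt, expressing cells included, was found in 96 Sox6-only, 12 Vsx1-only and 17 Ddit4l-only cells. After each cell was thinned to 200000 counts these were 57.6%, 5% and 13.6% of the groups, against 63.6%, 20% and 28.8% unthinned.

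Il1rapl2, a single-pass receptor-like protein gene, was expressed in Sox6-only and Vsx1-only cells and in no Ddit4l-only cell. Mean Il1rapl2 levels in retinas 1la, 1Ra, 2la and 2Ra were 122.7, 73.3, 87.5 and 55.97 TPM in Sox6-only cells. They were 92.1, 176.5, 127.9 and 146.7 TPM in Vsx1-only cells, and 0.187, 0.0363, 0.446 and 0.044 TPM in Ddit4l-only cells. The first 2 groups overlapped, with the Vsx1-only mean higher in 3 of 4 retinas, and both lay far above Ddit4l-only cells in every retina. Over the mice, Il1rapl2 was at 85.8 ± 18.9 TPM in Sox6-only cells, 136.7 ± 0.1 TPM in Vsx1-only cells and 0.200 ± 0.158 TPM in Ddit4l-only cells (SD, n = 2 mice). Its log2 fold change on summed counts was 8.86 for Sox6-only against Ddit4l-only cells, 9.38 for Vsx1-only against Ddit4l-only cells and -0.52 for Sox6-only against Vsx1-only cells. Against the few Ddit4l-only counts, these were 9.73 and 10.40 without retina 2la, and 6.65 and 7.02 with the markers required at 50 TPM. The third was -1.06 without retina 1la.

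Il1rapl2 reached 10 TPM in 70 of 151 Sox6-only cells (46.4%, interval 38.2 to 54.6%) and in 37 of 60 Vsx1-only cells (61.7%, interval 48.2 to 73.9%). It did so in 0 of 59 Ddit4l-only cells (interval 0 to 6.06%), and the highest Ddit4l-only value was 2.78 TPM. The Vsx1-only share was 56.2%, 77.8%, 57.1% and 50% in retinas 1la, 1Ra, 2la and 2Ra, and the Sox6-only share was 51.5%, 43.3%, 54.3% and 35.7%. Cells at 10 TPM or more therefore stood beside cells below that level in both groups and in every retina. Some of those below still held the transcript, as 92 Sox6-only and 46 Vsx1-only cells (60.9% and 76.7%) had an expected count of 1 or more. The part of missed transcripts in the split was not tested. Expressing cells had a median of 112.4 TPM in the Sox6-only group and 185.2 TPM in the Vsx1-only group. An expected count of 1 or more of Il1rapl2 was found in 12 of 59 Ddit4l-only cells, and the whole group held 20.65 counts. After thinning, 6.78% of Ddit4l-only cells, 66.7% of Vsx1-only cells and 52.3% of Sox6-only cells had a count.

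**Figure D2:**
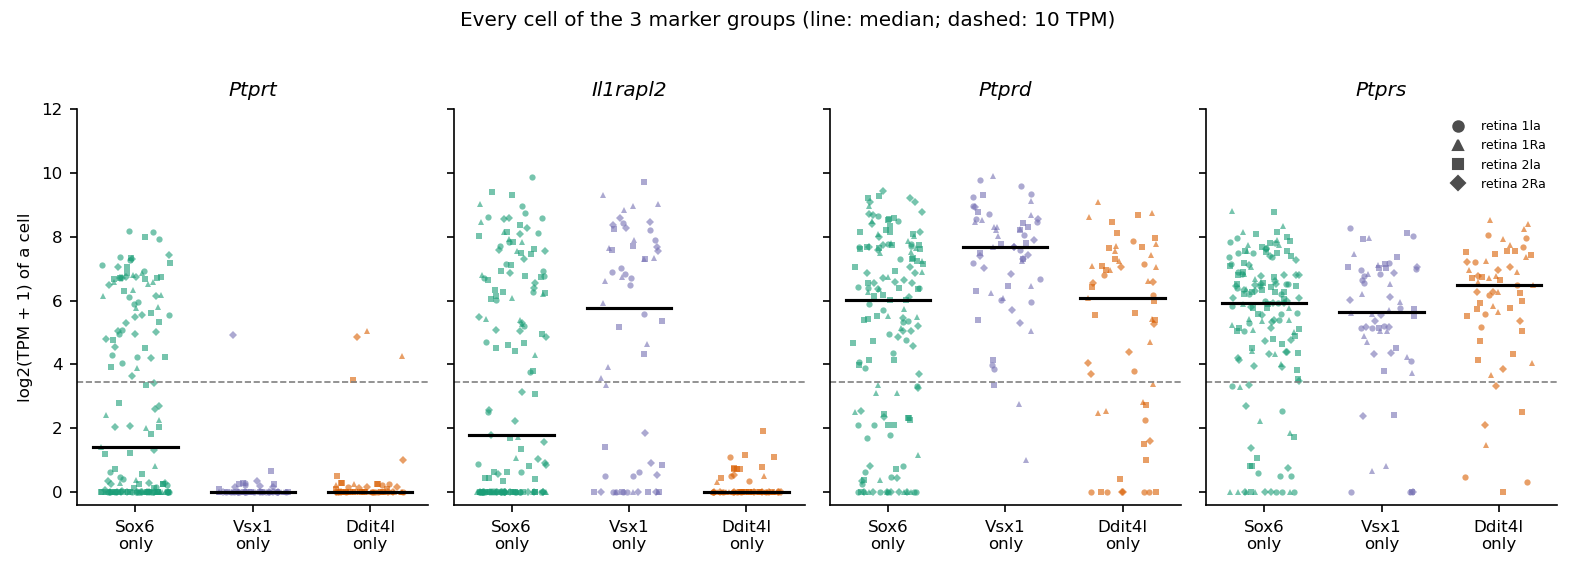
Level of Ptprt, Il1rapl2, Ptprd and Ptprs in every cell, as log2(TPM + 1) (y axis), for Sox6-only, Vsx1-only and Ddit4l-only cells (x axis); symbols are retinas, solid lines group medians and the dashed line 10 TPM. Ptprt splits the Sox6-only cells into 63 cells above and 88 below the line, and no Ddit4l-only cell is above it for Il1rapl2.

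Within the Sox6-only group the 2 genes reached 10 TPM together in some cells and singly in others, with little relation between their levels. Both were at 10 TPM or more in 27 cells, Ptprt alone in 36, Il1rapl2 alone in 43 and neither in 45. A gene below that level was not always absent, as 96 cells had a count of Ptprt and 92 of Il1rapl2. The part of missed transcripts in these fields was not tested. Il1rapl2 was thus expressed in 42.9% of the 63 cells expressing Ptprt and in 48.9% of the 88 other cells. The Spearman correlation of the 2 levels over these 151 cells was -0.08. It ranged from -0.19 to 0.03 over the 4 retinas. Single cells of 1 retina share their preparation, so these values are descriptions.

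**Figure D3:**
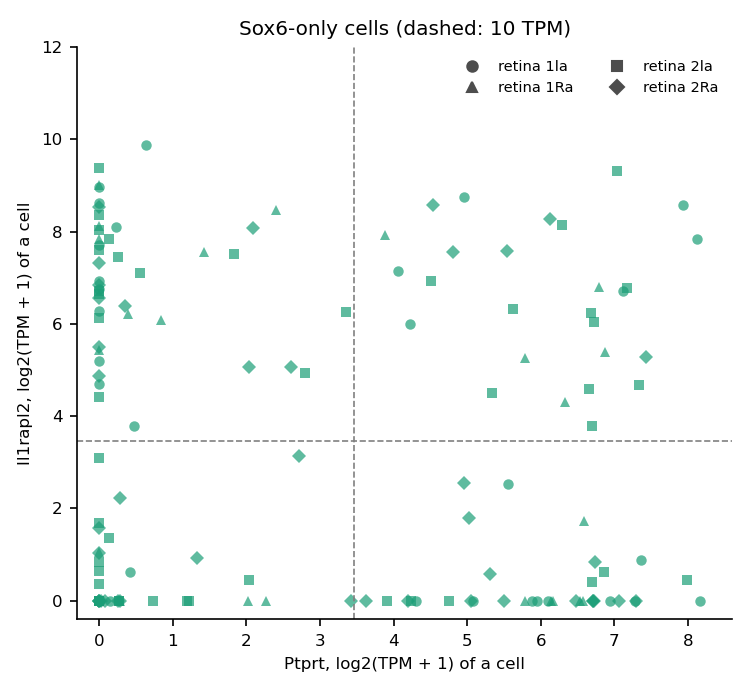
Ptprt (x axis) against Il1rapl2 (y axis) in the 151 Sox6-only cells, both as log2(TPM + 1), with dashed lines at 10 TPM and symbols for the retinas. The upper right field holds 27 cells, the lower right 36, the upper left 43 and the lower left 45, and cells of each retina are spread over the fields.

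Cells outside the 3 groups expressed Ptprt or Il1rapl2 in part, with few cells for each set of markers. Of 10 cells with both Sox6 and Ddit4l at 20 TPM or more, 6 expressed Ptprt and 4 expressed Il1rapl2. Of 6 cells with both Sox6 and Vsx1, 4 expressed Ptprt and 3 expressed Il1rapl2. The 2 cells with Vsx1 and Ddit4l expressed neither. Among 33 cells with no marker at that level, 7 expressed Ptprt and 3 expressed Il1rapl2. At the edge of the grouping rule, Ptprt was expressed in 2 of 7 Sox6-only cells between 20 and 40 TPM of Sox6 and in 2 of 5 ungrouped cells between 10 and 20 TPM. Il1rapl2 was expressed in 0 of 7 and 0 of 5 of these cells. In ungrouped cells at 1 to 10 TPM of a marker, Ptprt was expressed in 1 of 3 for Sox6, 0 of 3 for Vsx1 and 2 of 5 for Ddit4l. For Il1rapl2 these were 0 of 3, 2 of 3 and 0 of 5. Between 10 and 20 TPM of Vsx1 or of Ddit4l, 0 of 2 cells each expressed either gene. A cell could count under more than 1 marker.

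Ptprd, a LAR-family phosphatase, was the most abundant of the 10 genes in Vsx1-only cells and was higher there than in the other groups in all 4 retinas. Mean Ptprd levels in retinas 1la, 1Ra, 2la and 2Ra were 70.7, 104.4, 143.95 and 150.2 TPM in Sox6-only cells. They were 335.8, 262.4, 215.9 and 194.2 TPM in Vsx1-only cells, and 57.04, 154.7, 119.4 and 40.4 TPM in Ddit4l-only cells. The Vsx1-only means did not overlap with those of either other group, and the Sox6-only and Ddit4l-only means overlapped. Over the mice these were 116.8 ± 42.6 TPM in Sox6-only cells, 251.4 ± 64.4 TPM in Vsx1-only cells and 107.1 ± 19.7 TPM in Ddit4l-only cells (SD, n = 2 mice). Ptprd reached 10 TPM in 104 of 151 Sox6-only cells (68.9%), 57 of 60 Vsx1-only cells (95%) and 41 of 59 Ddit4l-only cells (69.5%).

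In edgeR's test across all genes, which called 0 and 7 of 16646 genes in the 2 contrasts below, the difference in Ptprd did not pass. Its log2 fold change for Sox6-only against Vsx1-only cells was -1.33 ± 0.31 (SE, adjusted p = 0.425, quasi-likelihood test on sums per mouse, n = 2). For Vsx1-only against Ddit4l-only cells it was 1.25 ± 0.31 (SE, adjusted p = 0.255, same edgeR test). With sums per retina the edgeR adjusted p was 0.132 and 0.0513, and DESeq2 on the sums per mouse called both, with adjusted p of 0.00155 and 0.00364. Without the cells rich in rod genes the log2 fold changes of Ptprd were -1.34 and 1.35. Ptprd shares exon bases with B230208B08Rik, and it was not stated whether counting used the strand, so reads of the 2 genes cannot be told apart there.

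Ptprs, the second LAR-family phosphatase, was at a like level in the 3 groups. Mean Ptprs levels in retinas 1la, 1Ra, 2la and 2Ra were 86.4, 90.8, 101.7 and 57.9 TPM in Sox6-only cells, 96.6, 65.95, 98.5 and 48.1 TPM in Vsx1-only cells, and 110.4, 137.6, 82.4 and 72.7 TPM in Ddit4l-only cells. These ranges overlapped throughout. Ptprs reached 10 TPM in 81.5% of Sox6-only, 86.7% of Vsx1-only and 88.1% of Ddit4l-only cells. Its log2 fold change was 0.20 ± 0.19 for Sox6-only against Vsx1-only cells, -0.15 ± 0.19 for Sox6-only against Ddit4l-only cells and -0.35 ± 0.19 for Vsx1-only against Ddit4l-only cells (SE, edgeR adjusted p = 0.899, 0.922 and 0.539). These errors do not show that the levels were equal.

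The ratio of the 2 phosphatases, like Ptprd itself, was highest in Vsx1-only cells. The ratio of mean TPM, Ptprd over Ptprs, was 0.819, 1.15, 1.42 and 2.59 in Sox6-only cells of retinas 1la, 1Ra, 2la and 2Ra. In Vsx1-only cells it was 3.48, 3.98, 2.19 and 4.04, and in Ddit4l-only cells 0.517, 1.12, 1.45 and 0.556. The ratio was highest in Vsx1-only cells in every retina, although the Vsx1-only value of retina 2la, 2.19, was below the Sox6-only value of retina 2Ra, 2.59. Cell by cell, Ptprd exceeded Ptprs in 79 of 151 Sox6-only cells (52.3%, interval 44.04 to 60.5%), 45 of 60 Vsx1-only cells (75%, interval 62.1 to 85.3%) and 24 of 59 Ddit4l-only cells (40.7%, interval 28.1 to 54.3%). At least 1 of the 2 genes was at 10 TPM or more in 139 Sox6-only, 60 Vsx1-only and 55 Ddit4l-only cells (92.1%, 100% and 93.2%). The Spearman correlation of their levels among cells was 0.01 over 151 Sox6-only, -0.06 over 60 Vsx1-only and 0.02 over 59 Ddit4l-only cells.

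**Figure D4:**
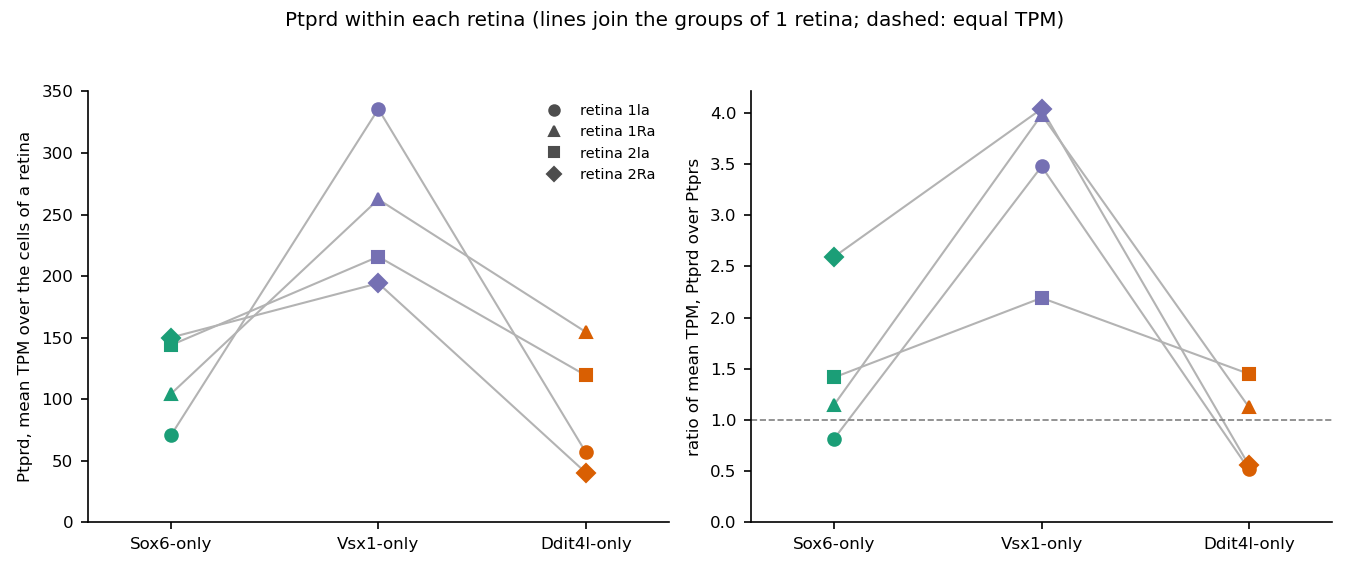
Mean Ptprd TPM (left, y axis) and the ratio of mean TPM of Ptprd over Ptprs (right, y axis) in Sox6-only, Vsx1-only and Ddit4l-only cells (x axis) of each retina; lines join the groups of 1 retina and the dashed line marks equal TPM. Each line peaks at the Vsx1-only cells, and the lowest Vsx1-only ratio is 2.19.

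Ptprf, the third LAR-family phosphatase, was found in few cells. It reached 10 TPM in 10 of 151 Sox6-only, 2 of 60 Vsx1-only and 9 of 59 Ddit4l-only cells (6.62%, 3.33% and 15.3%). Of the 9 Ddit4l-only cells, 8 came from mouse 2, with mean Ptprf levels in retinas 1la, 1Ra, 2la and 2Ra of 0, 1.56, 20.4 and 28.7 TPM. One cell held 34.4% of the Ptprf counts of Ddit4l-only cells and 61.3% of those of Vsx1-only cells.

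Il1rapl1, the partner of the LAR family, was all but absent, unlike its relative Il1rapl2. It reached 10 TPM in 1 Sox6-only, 0 Vsx1-only and 2 Ddit4l-only cells. In the Vsx1-only group 0 of 60 cells had an expected count of 1 (interval 0 to 5.96%). The highest Il1rapl1 level was 144 TPM, in a Ddit4l-only cell. On the genome Il1rapl1 and Il1rapl2 are both long X-chromosome genes, spanning 1375 and 1276 kb, of which 0.68% and 0.37% is exon.

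The 4 Slitrk genes of the set, short genes for proteins with leucine-rich repeats, were each found in a minority of cells. Outside the set, Slitrk1 was most frequent in Ddit4l-only cells and Slitrk3 in Vsx1-only cells, as given below. The share of cells with any of the 4 genes of the set was highest in the Ddit4l-only group over both mice. This difference was not tested. Against Sox6-only cells it held in both mice, and against Vsx1-only cells it held in mouse 1 but not in mouse 2. Slitrk2, Slitrk4, Slitrk5 or Slitrk6 reached 10 TPM in 7 of 151 Sox6-only cells (4.64%, interval 1.88 to 9.32%), 7 of 60 Vsx1-only cells (11.7%, interval 4.82 to 22.6%) and 16 of 59 Ddit4l-only cells (27.1%, interval 16.4 to 40.3%). In retinas 1la, 1Ra, 2la and 2Ra these were 0 of 16, 2 of 18, 1 of 14 and 4 of 12 Vsx1-only cells, and 5 of 10, 6 of 19, 2 of 20 and 3 of 10 Ddit4l-only cells. Mouse 1 had 4.76% of Sox6-only, 5.88% of Vsx1-only and 37.9% of Ddit4l-only cells with any of the 4 genes. Mouse 2 had 4.55%, 19.2% and 16.7%. Only 1 Sox6-only, 0 Vsx1-only and 2 Ddit4l-only cells had at least 2 of the 4 genes.

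Slitrk2 reached 10 TPM in 1 Sox6-only, 1 Vsx1-only and 10 Ddit4l-only cells. Its mean levels in Ddit4l-only cells were 57.6, 21.96, 0.36 and 18.2 TPM in retinas 1la, 1Ra, 2la and 2Ra, so retina 2la stood apart with no expressing cell. In the Sox6-only group 1 cell of retina 1la held 98.1% of the Slitrk2 counts. Slitrk4 reached 10 TPM in 1 Sox6-only, 0 Vsx1-only and 7 Ddit4l-only cells, and its mean levels in Ddit4l-only cells were 23.6, 5.48, 11.6 and 0.08 TPM in the 4 retinas. Slitrk4 also gave the most low readings, with an expected count of 1 or more in 29.1% of Sox6-only, 25% of Vsx1-only and 35.6% of Ddit4l-only cells. Thinning left these at 13.2%, 10% and 20.3%.

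Slitrk6 was found most often in Vsx1-only cells, at 10 TPM or more in 3 Sox6-only, 5 Vsx1-only and 1 Ddit4l-only cells. Its mean levels in Vsx1-only cells were 0.02, 3.87, 29.3 and 32.5 TPM in retinas 1la, 1Ra, 2la and 2Ra, and 1 cell held 44.8% of the group's counts. Slitrk5 reached 10 TPM in 3 Sox6-only and 1 Vsx1-only cells, and every Ddit4l-only cell was at 0 (interval 0 to 6.06%). Slitrk1 and Slitrk3, relatives outside the 10 genes, reached 10 TPM in 1 and 37 Sox6-only, 2 and 31 Vsx1-only and 14 and 17 Ddit4l-only cells. For Slitrk3 these were 24.5%, 51.7% and 28.8% of the groups, and for Slitrk1 0.662%, 3.33% and 23.7%. Neither gene is part of the share with any of the 4 Slitrk genes above.

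**Figure D5:**
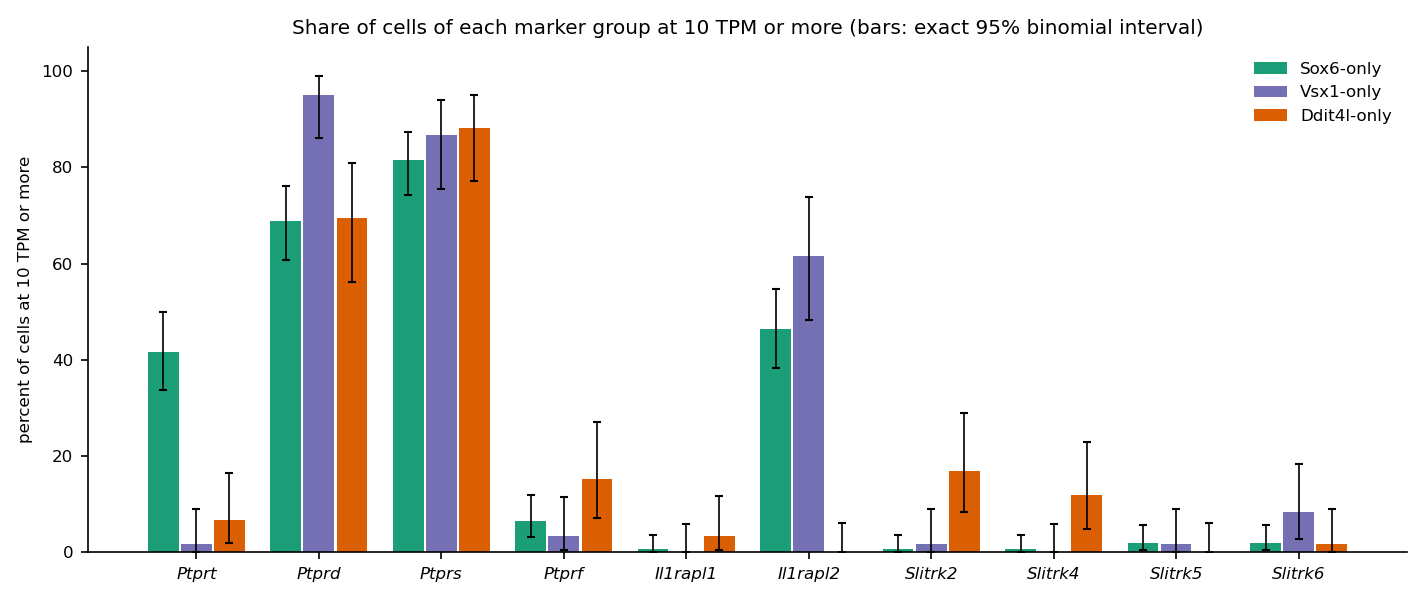
Percent of cells at 10 TPM or more (y axis) for each gene (x axis) in Sox6-only, Vsx1-only and Ddit4l-only cells, with exact 95% binomial intervals that cover counting error only. Ptprd and Ptprs are found in 68.9% to 95% of cells of every group, Ptprt and Il1rapl2 in 41.7% to 61.7% of the groups that have them, and the other genes in at most 16.9%.

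Across the table, a call needed a log2 fold change of 1 or more in either direction together with a p below 0.05 after Benjamini-Hochberg adjustment. All 10 genes passed the low-count filter, and 8 of them were tested. In edgeR's quasi-likelihood test on sums per mouse, 0 of the 8 were called for Sox6-only against Vsx1-only cells, where 0% of 16646 genes were, 0 for Sox6-only against Ddit4l-only cells, where 0% were, and 0 for Vsx1-only against Ddit4l-only cells, where 0.0421% were. With no gene called in the first 2 contrasts, even Sox6 and Vsx1, by which the cells were grouped, were missed. A member not called in this test is therefore not shown to be unchanged. At an unadjusted p under 0.05 in the same edgeR test there were 3, 2 and 5 of the 8 genes, and 8.58%, 8.06% and 12.9% of all genes. With sums per retina edgeR again called 0 of the 8 in each contrast, where 0.806%, 0.551% and 2.3% of 14508 genes were called. DESeq2 on the sums per mouse called 1, 2 and 6 of the 8, where 5.12%, 4.57% and 9.69% of genes were called. The 1 was Ptprd, the 2 were Slitrk4, lower, and Slitrk5, higher in Sox6-only cells. The 6 were Ptprd, Slitrk5 and Slitrk6, higher, and Ptprf, Il1rapl1 and Slitrk4, lower in Vsx1-only cells. Apart from Ptprd, these are genes found in few cells, as the counts above show. The median log2 fold change of the 8 genes in edgeR was 0.53, -0.40 and -1.17 in the 3 contrasts, against 0.05, 0.08 and 0.01 over all genes tested. The median absolute log2 fold change over all genes was 0.57, 0.59 and 0.72. In the third contrast the 8 values ran from -8.71 for Il1rapl1 to 9.34 for Slitrk5, both found in few cells, so these medians show no shared shift.

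Other genes of these pathways were taken from 4 lists, chosen with earlier results of these data known. In the edgeR test on sums per mouse, none was called in any contrast: 0 of 12 tested among other receptor tyrosine phosphatases, 0 of 24 extracellular partners of the LAR family, 0 of 21 intracellular partners and 0 of 5 IL-1 receptor family genes. Of all 16646 genes, 0, 0 and 7 were called in the 3 contrasts, so these counts of 0 say little about the lists. At an unadjusted p under 0.05 there were 2, 4 and 3 of the phosphatases, 8, 6 and 9 of the extracellular partners, 3, 2 and 3 of the intracellular partners and 1, 0 and 1 of the IL-1 receptor family genes in the 3 contrasts, against 8.58%, 8.06% and 12.9% of all genes. With sums per retina, which take the 2 retinas of a mouse as separate replicates, 3 genes passed in edgeR, where 0.806%, 0.551% and 2.3% of all genes were called. Ptprz1, a phosphatase receptor that binds contactins, rose in Sox6-only against Vsx1-only cells (log2 fold change 1.37 ± 0.19, SE, edgeR adjusted p = 0.0129) and fell in Vsx1-only against Ddit4l-only cells (-1.37 ± 0.19, edgeR adjusted p = 0.00871). Its mean levels in retinas 1la, 1Ra, 2la and 2Ra were 166, 117, 162 and 174 TPM in Sox6-only cells, 92.6, 49.3, 61.5 and 41.9 TPM in Vsx1-only cells and 190, 132, 224 and 99.1 TPM in Ddit4l-only cells. Ptprz1 means of Vsx1-only cells thus lay below every mean of the other groups.

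Ptprk, a phosphatase of the same family as Ptprt, likewise passed on sums per retina, higher in Sox6-only and lower in Vsx1-only cells (edgeR adjusted p = 0.0362 and 0.0398). It reached 10 TPM in 41 Sox6-only, 0 Vsx1-only and 11 Ddit4l-only cells (27.2%, 0% and 18.6%). Agrn, which encodes the heparan sulfate proteoglycan agrin, fell in Vsx1-only against Ddit4l-only cells on sums per retina (log2 fold change -1.56 ± 0.27, SE, edgeR adjusted p = 0.0267). Its mean levels were 22.6, 23.9, 23.9 and 20.04 TPM in Vsx1-only cells of the 4 retinas and 105.1, 99.8, 49.8 and 46.7 TPM in Ddit4l-only cells, without overlap. DESeq2 on the sums per mouse called 2, 3 and 4 of the 12 tested phosphatases in the 3 contrasts, 4, 7 and 10 of the 24 extracellular partners, 2, 0 and 3 of the 21 intracellular partners and 1, 0 and 1 of the 5 IL-1 receptor family genes, where 5.12%, 4.57% and 9.69% of all genes were called.

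Among those were 2 phosphatases whose cell counts differed widely, named after their values had been seen. Ptpro, a receptor phosphatase known from axon guidance in chick, reached 10 TPM in 3 Sox6-only, 3 Vsx1-only and 37 Ddit4l-only cells (1.99%, 5% and 62.7%). Ptprg, a phosphatase that binds contactins, did so in 50 Sox6-only, 37 Vsx1-only and 3 Ddit4l-only cells (33.1%, 61.7% and 5.08%). Il1r1, the interleukin-1 receptor, did so in 32, 0 and 5 cells (21.2%, 0% and 8.47%). Il1rap, its coreceptor and a partner of the LAR family, did so in 1, 4 and 4 cells (0.662%, 6.67% and 6.78%). The liprin gene Ppfia2, whose protein binds the inner part of LAR phosphatases, was found in 66.2%, 60% and 69.5% of the 3 groups.

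The genes whose profile was most like that of Ptprt and of Il1rapl2 were found by the Pearson correlation of log2(CPM + 1) over 12 sums, 1 per retina and group, among 4845 genes with at least 50 CPM in 1 group. CPM is a gene's share of all counts in a sum, without correction for length. For Ptprt the genes most alike were Cntn5, a contactin adhesion gene (r = 0.928), Dab1, an adaptor of reelin signalling (0.924), and the transcription factor gene Nfib (0.923). Next came Higd1a, a gene for a mitochondrial protein (0.902), and the DNA repair gene Xrcc3 (0.899). Mean CPM of Cntn5 was 182.2 in Sox6-only, 5.81 in Vsx1-only and 14.4 in Ddit4l-only cells, while that of Higd1a was 282.1, 141.4 and 128.8. For Il1rapl2 they were the adenylyl cyclase gene Adcy2 (r = 0.992), the fibronectin gene Fn1 (0.982), the ephrin receptor gene Epha4 (0.979), the cation exchanger gene Slc24a4 (0.964) and the G-protein subunit gene Gng13 (0.964). Mean CPM of Adcy2 was 143.2 in Sox6-only, 184.2 in Vsx1-only and 0.34 in Ddit4l-only cells. The 12 sums share mice, retinas and the grouping by 3 transcripts, and each list is ranked from many genes, so the correlations are descriptions.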

How the data were processed

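Of 384 labelled cells from 4 retinas of 2 mice, 383 had values here, and the remaining 1, from retina 1la, was not used. Both kinds of value deposited by the authors were used: RSEM expected counts, without normalisation, and TPM. TopHat2 2.0.10, RSEM 1.2.28 and mm10 are named in the submitters' processing notes; the annotation and the strand setting are not given in the sources used here. The genes and lists were chosen with earlier results of these data known, and 1 bipolar cell marker is not reported here. Expected counts were rounded and summed per mouse and marker group (2 mice, 3 groups), filtered with filterByExpr and tested with edgeR 4.0.16 (TMM, quasi-likelihood, mouse as a block, R 4.3.3). As mouse is a block, these p-values rest on how far the differences between groups varied between 2 mice. With sums per retina (12 sums, retina as a block) they rest on how far those differences varied between retinas, of which each mouse gave 2. Each sum of a mouse comes from the same animal, which pairs the groups. Differences between the mice correlated between groups at r = 0.10, 0.09 and 0.04 over 3868 genes at 50 CPM or more. DESeq2 1.42.0 was an alternative. The procedure was tested on simulated data. Retina and plate of wells cannot be told apart. Mean TPM was taken over the cells of a retina or of a mouse, and averages with SD are over the 2 mouse means; fold changes come from summed counts. Named genes were the 10 members, the 5 most alike to Ptprt and to Il1rapl2, and up to 6 called list genes per contrast; the others are named as chosen after their values were seen or because a count needs them. The 10 TPM level and the sums without the top cell were chosen after seeing the data. Gene positions are from GENCODE vM21 on the same assembly.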

Additional observations from a re-analysis of the deposited data

Results flagged for a closer look

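In 7 of 30 combinations of gene and marker group, the gap between 1 retina's mean TPM and the nearest of the other 3 exceeded the critical share of the whole range for 4 values (Dixon's test). Chance gives this in about 1 in 20 groups only if the values are normally distributed. Means that are near 0 in most retinas and lifted by 1 cell in another are not, so that rate does not apply to them. Slitrk5 in Ddit4l-only cells was at 0 in every retina and could not be flagged. Every flagged case was a gene found in few cells of that group. Ptprt in Vsx1-only cells was at 2.48 TPM in retina 2Ra, against at most 0.09 TPM in the other retinas. Il1rapl1 was at 2.35 TPM in Sox6-only cells and at 0.0133 TPM in Vsx1-only cells of retina 1Ra, where a single cell held less than 1 count. Slitrk2 was at 8.49 TPM in Sox6-only cells of retina 1la and at 4.02 TPM in Vsx1-only cells of retina 2Ra. Slitrk4 was at 1.11 TPM in Sox6-only cells of retina 2Ra, and Slitrk6 at 5.48 TPM in Ddit4l-only cells of that retina, its other Ddit4l-only means being 0. In Vsx1-only cells of retina 2Ra the summed rod markers averaged 3409 TPM and the summed Müller glia markers 1925 TPM, against 830.7 to 3370 TPM and 173.7 to 450.3 TPM in Vsx1-only cells of the other retinas. Without cells rich in rod genes, the log2 fold change of Ptprt for Sox6-only against Vsx1-only cells was 10.35, against 6.46 with them. The part of these markers in the Slitrk2 value was not tested.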

How the results depend on the processing

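The genes called for Sox6-only against Vsx1-only, Sox6-only against Ddit4l-only and Vsx1-only against Ddit4l-only cells, 0, 0 and 7 in edgeR on sums per mouse, were 852, 760 and 1613 with DESeq2 and 117, 80 and 333 with sums per retina. With no replicate block they were 16, 2 and 62, and with the other 2 markers under 1 TPM they were 7, 2 and 7. The first was 3 with no low-count filter and 1 with the markers at 50 TPM. In that setting 50 TPM replaced 20 TPM for the group's own marker and for the other 2 alike. The third was 4 with the markers at 50 TPM, 4 with at least 5000 genes per cell and 0 without cells rich in rod genes. Leaving out 1 retina gave 0 to 0, 0 to 0 and 0 to 11 genes, with 0 without 1la, 0 without 1Ra, 11 without 2la and 4 without 2Ra for the third. Of the 8 tested members, 0 were called in every setting except DESeq2, which called 1, 2 and 6; the unpaired fit called none. The difference of Ptprd between Sox6-only and Ddit4l-only cells, -0.08 on the log2 scale, changed sign with sums per retina (0.17) and without cells rich in rod genes (0.0094), and was -0.20 to 0.29 with 1 retina left out. Ptprd kept its sign in both contrasts with Vsx1-only cells in 15 of 15 settings (-1.63 to -1.03 and 0.97 to 1.80). Ptprt log2 folds ranged from 5.67 (no replicate block) to 10.35 (without cells rich in rod genes; 10.25 with the other 2 markers under 1 TPM) for Sox6-only against Vsx1-only, and from 4.30 (without retina 1la) to 7.68 (without retina 1Ra) for Sox6-only against Ddit4l-only cells. Il1rapl2 log2 folds of Sox6-only and Vsx1-only against Ddit4l-only cells ranged from 6.65 and 7.02 (markers at 50 TPM) to 9.73 and 10.40 (without retina 2la). The cause of these shifts was not tested.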
